A study of Arabidopsis thaliana with 24 samples.

Results

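The comparison described here set the phot2 mutant directly against the phot1 mutant after UV-C. It contrasted 6 of the 24 RNA-Seq libraries of the study, 3 of phot1 and 3 of phot2, each taken by its genotype and treatment label. All were made from whole rosettes of Arabidopsis thaliana harvested 30 min after a dose of 100 mJ cm-2 of UV-C. Both mutants and the wild type are in the Col-0 gl1 background, so every plant carries the gl1 mutation, which blocks trichome formation. Plants were grown in an 8 h photoperiod, their age is 4 weeks in the labels and 3 weeks in the methods, and the phot1 and phot2 alleles are not named in the sources used here. Each library is a biological replicate that pools at least 4 rosettes. Values are also given for non-treated (NT) phot1 and phot2, the UV-C treated wild type (WT), and UV-C treated phot1phot2, with 3 libraries in each. Non-treated WT and non-treated phot1phot2 entered the fitted model with the rest. All 24 libraries in 8 groups thus informed the spread behind each p-value of the main test.

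Phototropins are plasma membrane receptor kinases that sense blue light through flavin-binding LOV domains. In Arabidopsis phot1 and phot2 jointly drive phototropism, stomatal opening, leaf flattening, and the accumulation of chloroplasts in weak light, while the avoidance movement of chloroplasts in strong light depends on phot2. A phot1 plant therefore lacks the receptor that dominates in weak blue light and keeps phot2, and a phot2 plant the reverse. The question of the direct comparison is which transcripts differ between plants that lack the opposite receptor when both have received the same UV-C dose.

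The 6 libraries held 21639362 to 25560151 counted reads each, and the 6 non-treated libraries of the same genotypes held more (33200727 to 41902444). Reads of chloroplast genes took 1.99 to 2.21% of the counts in phot1 and 1.85 to 2.14% in phot2, against 0.0159 to 0.0286% without UV-C, and no organelle gene is among the genes tested. Summed over 4 leaf mesophyll markers the level was 70889 to 74172 CPM (each count over the TMM-scaled library total, times 1e6) in phot1 and 59819 to 65600 CPM in phot2. Flower markers (5 genes) summed to 2.51 to 4.46 CPM in phot1 and 4.93 to 7.41 CPM in phot2, with the floral regulator AP1 at 0.236, 0.602, and 0.376 CPM in phot1 and 1.80, 1.14, and 1.92 CPM in phot2. Guard cell markers (4 genes) summed to 34.44 to 34.47 CPM in phot1 and 37.2 to 38.4 CPM in phot2. Trichome markers (4 genes) summed to 4.60 to 5.97 CPM in phot1 and 4.50 to 5.55 CPM in phot2. Root markers stayed at or below 0.299 CPM and seed markers at or below 0.635 CPM. RHD6, EXPA7, and CRU3 were at 0 in all 6 libraries, and none of the markers was called. The part of these marker differences in the results below was not tested. In whole rosettes, fewer cells of a type and less RNA per cell cannot be told apart.

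The difference was mostly a set of higher transcripts in phot2. Of 20094 protein-coding genes tested, 161 (0.801%) passed an adjusted p of 0.01 together with an absolute log2 fold change of 1 (edgeR quasi-likelihood test, Benjamini-Hochberg adjustment), and these are the genes termed called below. Of these, 148 (0.737%) were higher in phot2 and 13 (0.0647%) were lower, whereas the median log2 fold change of all genes was 0.00. Most rises were moderate. Their median was 1.42 on the log2 scale, a 2.67-fold difference, 129 of the 148 lay under a log2 fold change of 2, and 30 had a phot1 mean under 1 CPM. In all 161 called genes the 3 libraries of each mutant lay wholly on one side of the other, an arrangement found in 11.9% of all tested genes with phot2 above and in 12.1% with phot2 below. Only 5 genes were shown to differ by more than a log2 fold change of 1 (glmTreat, adjusted p under 0.01): ckl12, LTI78, and AT3G42860 were higher and PHS2 and AT1G27565 were lower. The count fell to 85 without phot2 replicate 1, to 95 without phot1 replicate 1, and to 92 without phot1 replicate 3, and it was 304 with a likelihood ratio test. Among the 148 rises phot2 replicate 1 was the highest phot2 library in 77 (52.0%, against 30.3% over all genes) and replicate 3 the lowest in 77 (52.0%, against 34.9%). What set these replicates apart was not tested.

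The transcripts of the mutated genes followed the labels. PHOT1 (AT3G45780, chr3:16816721-16824210, plus strand, TAIR10) was at 132, 127, and 120.4 CPM in phot1 after UV-C. In phot2 it was at 269, 258, and 289 CPM, a log2 fold change of 1.11 ± 0.08 (adjusted p = 2.2e-08). Here and below ± gives the SE of the fitted model, with n = 3 in each group. WT after UV-C had 218, 258, and 252 CPM of PHOT1, near the phot2 libraries. PHOT2 (AT5G58140, chr5:23523825-23533111, plus strand) was at 403, 356, and 378 CPM in phot1 and at 243, 224, and 241 CPM in phot2. That is a log2 fold change of -0.68 ± 0.06 (adjusted p = 3.7e-07), so the difference passed the test and stayed under the fold change limit. PHOT2 overlaps a gene on the opposite strand, and the counting did not use strand. Each mutant thus had the lower level of its own gene, with no overlap between the groups, and kept a transcript of it. Without UV-C the log2 fold changes were 1.299 for PHOT1 and -0.75 for PHOT2. Of 18 tested genes of phototropin signalling and chloroplast movement only PHOT1 was called, against 0.801% of all genes tested. The list's median was -0.15, and RPT2, a phot1-interacting protein of the NPH3 family, had 717, 789, and 670.3 CPM in phot1 and 650.0, 634, and 676 CPM in phot2 (log2 fold change -0.15 ± 0.09).

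**Figure D1:**
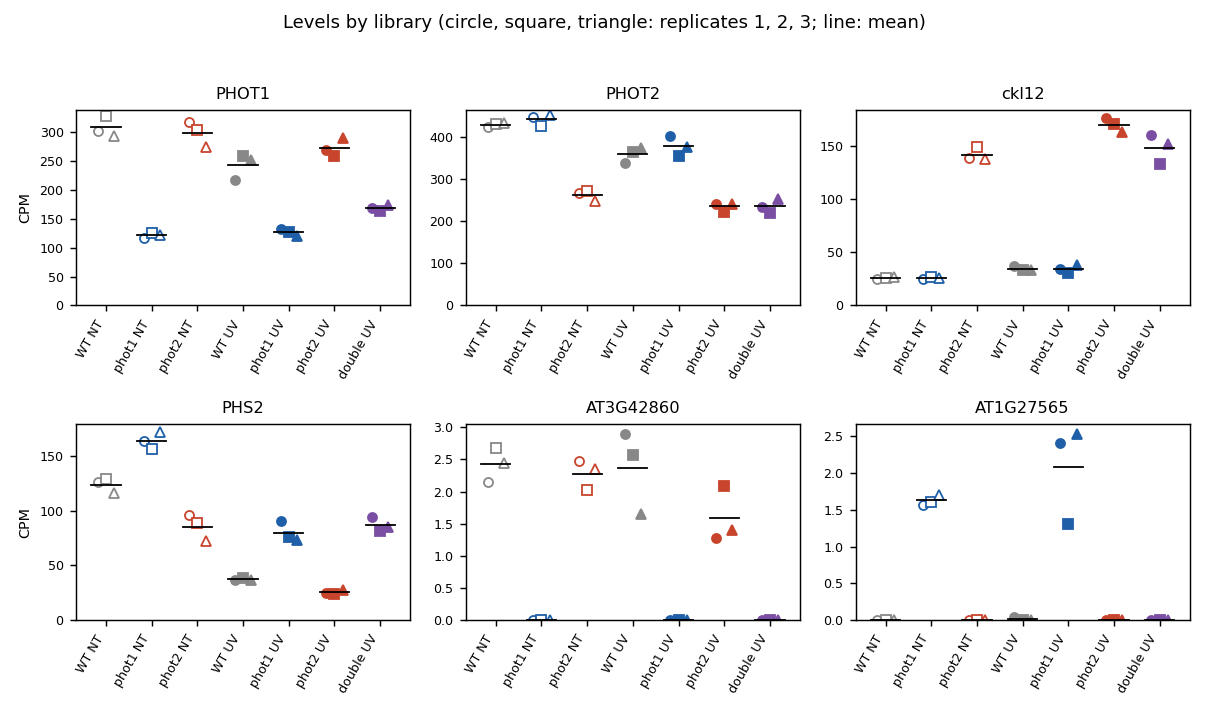
TMM-scaled CPM (y axis, from 0) of 6 genes in each library of the non-treated (NT, open symbols) and UV-C treated (UV, filled symbols) groups along the x axis, where double stands for phot1phot2 and a line marks the mean of 3 libraries. PHOT1 is lowest in phot1, PHOT2 and ckl12 set phot2 and phot1phot2 apart from WT and phot1, and AT3G42860 and AT1G27565 have a mutant group at 0.

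Of the gene lists compared, that of cold and dehydration genes had the most called members and the largest median difference. The lists were chosen with earlier results of these data known, so this rank is a description only. In plants, cold and water deficit induce the CBF (DREB1) factors of the AP2/ERF family, which bind a CCGAC element in the promoters of genes for protective proteins such as dehydrins and for enzymes of compatible sugars. Of 23 tested members of this list 9 were called higher and 0 lower, 22 lay above 0, and the median log2 fold change was 1.28, against 0.00 over all genes tested. In 16 of the 23 all 3 phot2 libraries lay above all 3 phot1 libraries. Over all genes tested 0.737% were called higher, 50.2% lay above 0, and 11.9% had phot2 wholly above phot1. The same list had a median of 0.35 without UV-C, with 0 members called by edgeR or DESeq2, 1 by the likelihood ratio test, and 4 at an unadjusted p under 0.05 (12.8% of all genes in that comparison).

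The 250 bases before the start of 4 of the called cold genes are shown because 3 of them hold the element to which the CBF factors bind and the other, COR47, does not. Capitals mark CCGAC or its reverse complement GTCGG, and all 4 are read 5′ to 3′ on the strand of the gene from the RefSeq assembly TAIR10.1. LTI78 (chr5:21240467-21240716, plus strand) has the element 140, 90, and 33 bases before the start, COR15A (chr2:17712331-17712580, minus strand) 142 and 79 bases before it, and GolS3 (chr1:3019389-3019638, plus strand) 216 and 205 bases before it, while the window of COR47 is chr1:7086874-7087123 on the minus strand.
LTI78: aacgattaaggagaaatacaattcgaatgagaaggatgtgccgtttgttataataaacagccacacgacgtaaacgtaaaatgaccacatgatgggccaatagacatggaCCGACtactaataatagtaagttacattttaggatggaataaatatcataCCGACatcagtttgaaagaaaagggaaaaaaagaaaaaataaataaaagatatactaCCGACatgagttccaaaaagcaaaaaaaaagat
COR15A: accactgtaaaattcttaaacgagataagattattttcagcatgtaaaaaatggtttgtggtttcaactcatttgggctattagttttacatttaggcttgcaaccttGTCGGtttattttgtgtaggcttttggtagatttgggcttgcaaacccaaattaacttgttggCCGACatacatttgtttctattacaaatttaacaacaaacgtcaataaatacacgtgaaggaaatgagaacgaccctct
GolS3: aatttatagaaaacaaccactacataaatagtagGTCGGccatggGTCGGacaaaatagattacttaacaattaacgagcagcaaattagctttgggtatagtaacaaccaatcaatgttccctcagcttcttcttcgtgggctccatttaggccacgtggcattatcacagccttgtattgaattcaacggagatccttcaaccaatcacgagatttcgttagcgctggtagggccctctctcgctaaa
COR47: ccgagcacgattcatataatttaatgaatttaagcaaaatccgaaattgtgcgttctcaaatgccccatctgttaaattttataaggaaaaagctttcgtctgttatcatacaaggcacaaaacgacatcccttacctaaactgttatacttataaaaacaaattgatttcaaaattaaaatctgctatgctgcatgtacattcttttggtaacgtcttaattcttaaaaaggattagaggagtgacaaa

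LTI78 (also RD29A) codes for a hydrophilic protein induced by cold and desiccation and is a standard reporter of this pathway. It was at 13.9, 8.17, and 11.4 CPM in phot1 and at 181, 73.2, and 125 CPM in phot2, a log2 fold change of 3.499 ± 0.35 (adjusted p = 1.9e-06), and it was called in all 6 fits that left out 1 library of this comparison. The lowest phot2 library lay far above the highest phot1 library. COR15A, which protects chloroplast membranes during freezing, was at 61.5, 39.1, and 51.1 CPM in phot1 and at 429.7, 121, and 235 CPM in phot2 (log2 fold change 2.37 ± 0.34, adjusted p = 0.00014). Both genes had their highest phot2 value in replicate 1.

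The dehydrins are hydrophilic proteins that accumulate in dehydrating cells. COR47 was at 144, 134, and 129 CPM in phot1 and at 412, 297, and 323 CPM in phot2 (log2 fold change 1.34 ± 0.14, adjusted p = 2.1e-06). Its neighbour ERD10, in a stretch of 5.198 kb on chromosome 1 that holds only these 2 genes, was at 119.9, 115, and 124 CPM in phot1 and at 308, 298, and 263 CPM in phot2 (1.28 ± 0.13, adjusted p = 2.3e-06). The dehydrin LTI30 had lower counts, at 3.26, 1.35, and 2.16 CPM in phot1 and 31.7, 10.2, and 9.22 CPM in phot2 (2.90 ± 0.53, adjusted p = 0.0015). COR47 and ERD10 were tight within each mutant, whereas LTI30 was spread widely in phot2, with replicate 1 on top. GolS3, a galactinol synthase of the raffinose sugar pathway, was at 4.44, 2.71, and 3.66 CPM in phot1 and at 17.2, 8.96, and 14.5 CPM in phot2 (1.90 ± 0.25, adjusted p = 5.7e-05). The small hydrophilic protein gene KIN1 was at 4.82, 3.31, and 5.50 CPM in phot1 and 26.3, 9.95, and 9.99 CPM in phot2 (1.75 ± 0.36, adjusted p = 0.0038). KIN1 lies beside its close relative KIN2, and reads that fit both were left out by the counting.

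Among the factors themselves, DREB1A (CBF3) was at 3.92, 2.36, and 1.88 CPM in phot1 and at 9.85, 13.3, and 5.76 CPM in phot2 (1.82 ± 0.37, adjusted p = 0.0035). DDF1, a related factor known for roles in gibberellin metabolism and salt tolerance, was at 0.142, 0.301, and 0.329 CPM in phot1 and at 8.89, 8.16, and 0.811 CPM in phot2 (4.50 ± 1.03, adjusted p = 0.0076). The rise of DDF1 thus lay in replicates 1 and 2 of phot2, with replicate 3 close above phot1. CBF1 and CBF2, named after their values were seen, had log2 fold changes of 1.103 ± 0.50 and 1.103 ± 0.38 and were not called (adjusted p = 0.18 and 0.069). CBF2 was at 27.6, 20.5, and 15.4 CPM in phot1 and 49.6, 55.5, and 31.6 CPM in phot2, with no overlap of the groups. KIN2 (0.72 ± 0.15) and the galactinol synthase GolS1 (0.76 ± 0.21) were also above 0 without being called, while the zinc finger genes STZ and RHL41 were at 0.00 ± 0.32 and 0.15 ± 0.21.

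The number of called cold genes was 5 without phot2 replicate 1 or without phot1 replicate 2, and 9 without phot2 replicate 3. LTI78, COR15A, COR47, ERD10, and GolS3 were called in each of the 6 fits that left out a library, whereas DDF1 lost its call in 5 of them, DREB1A and KIN1 in 4, and LTI30 in 2 (adjusted p up to 0.039, 0.025, 0.041, and 0.014). Of the 23 members, 13 had their highest phot2 value in replicate 1. The WT libraries give the levels a reference. After UV-C the list's median log2 fold change was -0.25 for phot1 against WT and 1.105 for phot2 against WT, comparisons that share the WT libraries with each other and the mutant libraries with the direct one. In phot1phot2 LTI78 was at 244, 323, and 152 CPM and COR15A at 501, 512, and 232 CPM, in the range of phot2 or above it, while DDF1 was at 0.628, 0.4997, and 0.694 CPM, near phot1.

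**Figure D2:**
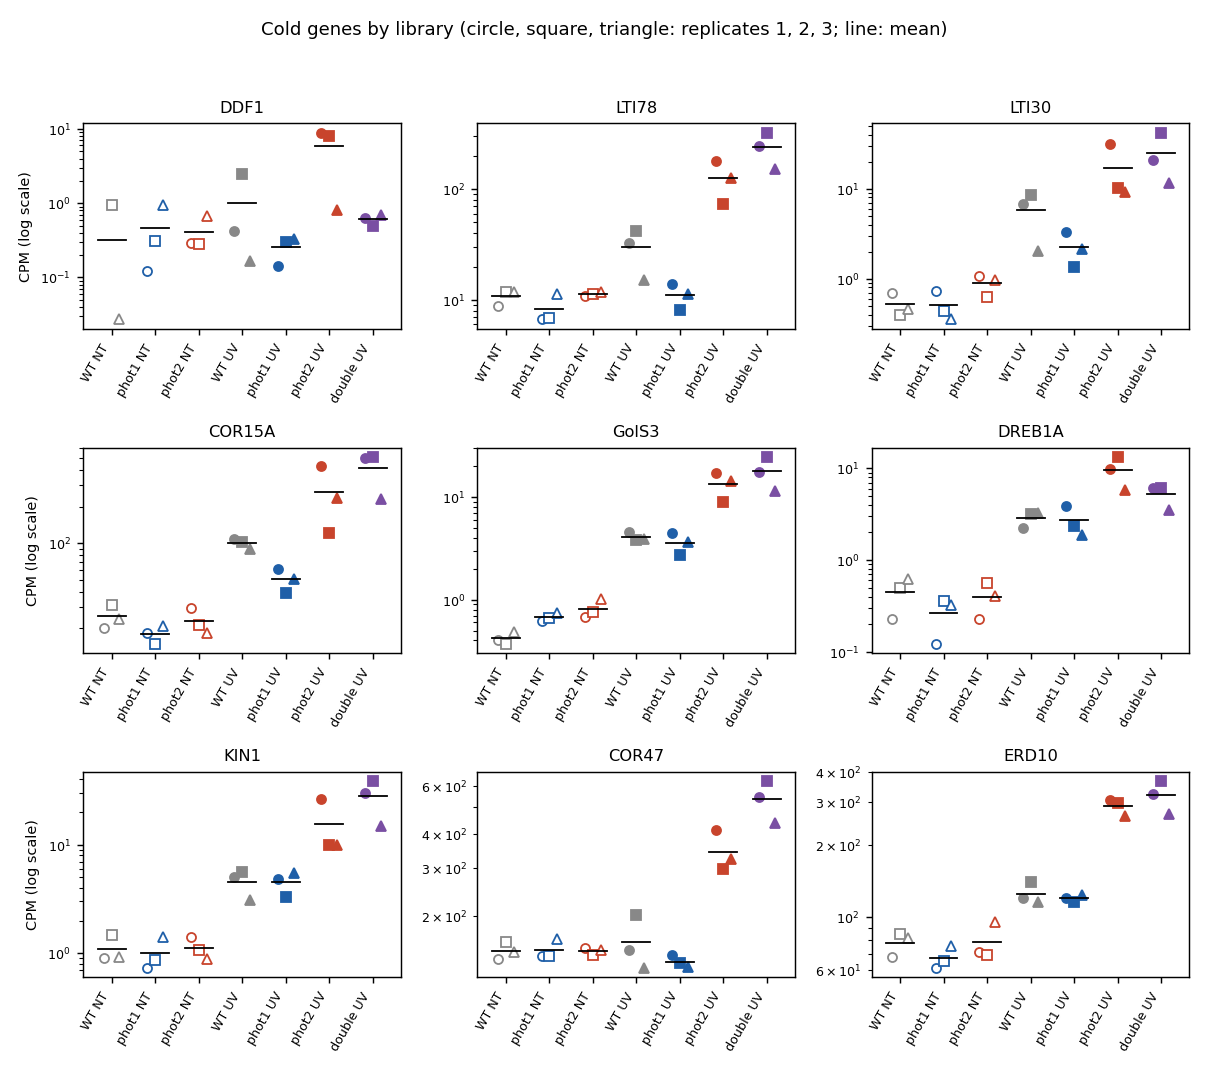
TMM-scaled CPM (y axis, log scale) of the 9 called genes of the cold and dehydration list in each library of the groups on the x axis, with open symbols for NT, filled symbols for UV, double for phot1phot2, and a line for the mean of 3 libraries; a library at 0 is not drawn. The 3 phot2 UV libraries lie above the 3 phot1 UV libraries in every panel, as for LTI78 at 73.2 to 181 against 8.17 to 13.9 CPM, and DDF1 has phot2 replicate 3 near phot1.

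Over all tested genes with a matching start, 16.1% had a CCGAC element on either strand between 250 bases before and 50 bases after the start (20091 genes). The element was found in 34 of the 148 genes called higher (22.97%), in 8 of the 23 cold genes, and in 4 of the 9 called ones (LTI78, COR15A, LTI30, and GolS3). The evening element AAATATCT was found in 9 of the 23 cold genes and in 5.95% of all, and the G-box CACGTG in 8 of the 23 and in 8.85% of all. The W-box, TTGACC or TTGACT, to which WRKY factors bind, was in 57 of the 148 (38.5%) and in 32.6% of all, and the GCC-box GCCGCC in 1 of the 148 and in 2.59% of all. Such a match is a description of these letters, not a binding site.

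Other AP2/ERF factors were higher in phot2 from low levels in phot1. ERF53, a factor known from drought and heat responses, was at 0.284, 0.351, and 0.141 CPM in phot1 and at 4.39, 4.63, and 5.42 CPM in phot2 (log2 fold change 4.21 ± 0.59, adjusted p = 0.00013). AT4G28140 (ERF54) was at 0.520, 0.602, and 0.423 CPM in phot1 and at 3.92, 2.34, and 2.65 CPM in phot2 (2.52 ± 0.45, adjusted p = 0.0012). Both were called in all 6 fits without a library. They were the only called members of 19 tested genes of ethylene and ERF signalling, against 0.737% called higher over all genes tested. The median of that list was 0.19. RAP2.6, an ERF factor induced by abscisic acid and jasmonate, was at 0.331, 0.0501, and 0.423 CPM in phot1 and at 15.5, 0.846, and 5.08 CPM in phot2 (4.68 ± 0.99, adjusted p = 0.0044). Its phot2 libraries spread more widely than those of ERF53, and its call was lost without phot2 replicate 1 (adjusted p = 0.039) and without each phot1 library in turn. WT after UV-C had 5.43, 9.05, and 7.11 CPM of RAP2.6, within the phot2 range, and phot1 lay below WT without a call (log2 fold change -4.71, adjusted p = 0.017). ERF53 was low in WT, at 0.0468, 0.280, and 0.165 CPM. Of the other large rises, AT5G38700 (3.23 ± 0.71), AT3G28600 (3.13 ± 0.64), and the glutamate receptor-like gene GLR2.9 (2.59 ± 0.55) were at 0.301 CPM or less in every phot1 library, and each lost its call in 5 of the 6 fits without a library (adjusted p up to 0.037, 0.020, and 0.028).

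Jasmonate genes were nearly all above 0, and 1 of them was called. Of 25 tested, 24 had a positive log2 fold change, against 50.2% of all genes tested, and the median was 0.47. In 7 of the 25 all 3 phot2 libraries lay above all 3 phot1 libraries (11.9% of all genes), and in 18 the groups overlapped. The called gene was ST2A, a sulfotransferase that acts on hydroxyjasmonate, while 0.737% of all genes tested were called higher. With DESeq2, and likewise with the likelihood ratio test, 3 of the 25 were called. An unadjusted p under 0.05 was found for 13 of the 25, against 23.2% of all genes. ST2A was at 2.84, 1.304, and 1.55 CPM in phot1 and at 41.1, 7.36, and 9.90 CPM in phot2 (3.34 ± 0.66, adjusted p = 0.0027). Replicate 1 stood above the other phot2 libraries, and the call was lost without it (adjusted p = 0.028), as it was without phot1 replicate 2 or 3 (0.018 and 0.016). LOX2, a chloroplast lipoxygenase of jasmonate synthesis, was at 166, 137, and 116 CPM in phot1 and at 342, 127, and 236 CPM in phot2, so that its groups overlapped. Its log2 fold change was 0.75 ± 0.29 (adjusted p = 0.10). All 12 tested genes of aliphatic glucosinolate synthesis also lay above 0 with a median of 0.35. None was called by edgeR, DESeq2, or the likelihood ratio test, and 7 had an unadjusted p under 0.05 (23.2% of all genes), with MAM1, the first enzyme of side-chain elongation, at 0.25 ± 0.13.

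Of the 148 genes called higher, 17 (11.5%) have the word kinase in the annotation's product description, against 5.67% of all tested genes, and 12 (8.11%) have the word receptor, against 1.36%, and these words were chosen after the called genes had been seen. Among them, and likewise named after the values were seen, FRK1, a receptor-like kinase used as a marker of the response to bacterial flagellin, was at 1.84, 1.75, and 1.78 CPM in phot1 and at 10.8, 10.6, and 7.73 CPM in phot2 (2.43 ± 0.33, adjusted p = 9.6e-05). IOS1, a leucine-rich repeat kinase that takes part in immune receptor complexes, was at 4.96, 5.21, and 4.18 CPM in phot1 and at 18.7, 17.9, and 13.6 CPM in phot2 (1.80 ± 0.25, adjusted p = 0.00012). In both genes phot1phot2 was nearer to phot1, with 2.71, 3.15, and 2.95 CPM of FRK1 and 5.27, 4.75, and 5.72 CPM of IOS1. IOS1 lies in a stretch of 72.2 kb on chromosome 1 with 7 tested genes, of which 5 were called higher (0.737% of all genes tested). The stretch begins and ends at called genes, so this count is a description only.

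Another stretch, of 13.9 kb on chromosome 4, holds AZI1 and 3 close relatives that code for lipid-transfer proteins. Of the 6 genes in it 4 were tested, and all 4 were called higher (0.737% of all genes tested). It too begins and ends at called genes, so this count is a description only. These 4 genes, and AT5G64120 and MYB15 below, were likewise named after their values were seen. AZI1, which takes part in the priming of systemic defence, was at 21.1, 29.5, and 22.0 CPM in phot1 and at 51.6, 69.2, and 47.9 CPM in phot2 (1.22 ± 0.21, adjusted p = 0.00094). EARLI1 was at 29.5, 31.4, and 25.3 CPM in phot1 and at 74.3, 108, and 63.2 CPM in phot2 (1.51 ± 0.21, adjusted p = 0.00013). The log2 fold changes of AT4G12490 and AT4G12500 were 1.83 ± 0.35 and 1.73 ± 0.30. In each of these 4 genes phot2 replicate 2 was the highest library. Such neighbours resemble each other in sequence, so reads that fit several of them were left out, and AT4G12490 lost its call in 3 of the 6 fits without a library (adjusted p up to 0.015). The peroxidase gene AT5G64120 was at 41.8, 46.0, and 64.4 CPM in phot1 and at 172, 229.8, and 129 CPM in phot2 (1.80 ± 0.27, adjusted p = 0.00026). MYB15, a factor of lignin synthesis and of CBF regulation, was at 13.2, 9.58, and 11.4 CPM in phot1 and at 55.6, 59.2, and 19.1 CPM in phot2 (1.96 ± 0.34, adjusted p = 0.0010), and it was not called by DESeq2.

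Each listed defence family held a small number of called genes, while over all genes tested 0.737% were called higher. Of 27 cysteine-rich receptor-like kinases 22 were above 0, against 50.2% of all genes tested, with a median of 0.38. Of the 27, 2 were called (4 with DESeq2, 7 with the likelihood ratio test), CRK13 (1.597 ± 0.37, adjusted p = 0.0081) and CRK24 (1.603 ± 0.30, adjusted p = 0.0016). CRK13 was at 2.27, 3.61, and 2.49 CPM in phot1 and at 7.15, 11.1, and 7.0 CPM in phot2, and it lost its call in each of the 6 fits without a library (adjusted p 0.011 to 0.044). CRK24 lost its call without phot1 replicate 3 (adjusted p = 0.012). Of 20 salicylic acid genes only ACD6 was called, an ankyrin membrane protein that promotes salicylic acid defence, at 20.1, 25.9, and 14.7 CPM in phot1 and 62.8, 37.8, and 64.8 CPM in phot2 (1.45 ± 0.25, adjusted p = 0.00089). The median of that list was 0.07. Of 12 genes that the study names for its UV-C response, a list chosen on these samples and so no independent evidence, 3 were called higher (ACD6, CRK24, and AT4G28140), with a median of 0.89. WRKY8 was the called member of 22 WRKY genes (1.48 ± 0.28), GSTF7, a glutathione transferase, that of 21 antioxidant genes (1.36 ± 0.29), and PIL1, a shade-induced bHLH factor, that of 18 PIF, shade, and auxin genes (1.91 ± 0.39). WRKY8 lost its call in 2 of the 6 fits without a library, GSTF7 in 4, and PIL1 in 3 (adjusted p up to 0.014, 0.028, and 0.018).

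The genes lower in phot2 were few and of mixed function. PHS2, the cytosolic alpha-glucan phosphorylase of starch breakdown products, was at 90.2, 76.1, and 73.2 CPM in phot1 and at 24.99, 23.98, and 27.3 CPM in phot2 (-1.65 ± 0.10, adjusted p = 3.9e-10). RVE2, a MYB-like factor close to the clock genes, was at 58.4, 71.5, and 69.4 CPM in phot1 and at 25.7, 31.0, and 26.2 CPM in phot2 (-1.27 ± 0.12, adjusted p = 1.1e-06). In WT after UV-C RVE2 was at 86.3, 101, and 83.4 CPM, above both mutants. PRR3, a pseudo-response regulator of the clock, was the only called member of 12 evening clock genes, at 2.32, 1.75, and 2.395 CPM in phot1 and at 0.741, 0.896, and 1.24 CPM in phot2 (-1.15 ± 0.21, adjusted p = 0.0015). Its call was lost without phot2 replicate 1 (adjusted p = 0.012). Over all genes tested 0.0647% were called lower. The evening list had a median of -0.29 and the 8 morning genes one of 0.06.

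TIR, a protein with a Toll/interleukin-1 receptor domain, was at 228, 175, and 205 CPM in phot1 and at 91.5, 91.7, and 112 CPM in phot2 (-1.04 ± 0.11, adjusted p = 2.3e-06). ERO2, an oxidoreductin that drives disulfide formation in the endoplasmic reticulum, was at 17.3, 17.7, and 18.6 CPM in phot1 and at 7.20, 8.41, and 7.85 CPM in phot2 (-1.19 ± 0.09, adjusted p = 2.2e-08). AT4G38690, annotated as a phospholipase C-like phosphodiesterase, was at 39.6, 48.3, and 41.7 CPM in phot1 and at 17.36, 16.02, and 16.4 CPM in phot2 (-1.38 ± 0.13, adjusted p = 7.0e-07). In these 3 genes WT and phot1phot2 were near phot1, with ERO2 at 17.1, 13.7, and 17.1 CPM in WT and at 16.5, 15.9, and 17.3 CPM in phot1phot2. TIR fell short of the fold change limit without phot1 replicate 1, phot2 replicate 1, or phot2 replicate 2 (-0.95 at the weakest). Among genes of low level, the Pumilio RNA-binding protein gene PUM9 (-1.75 ± 0.32), the kinase gene AT2G25220 (-1.15 ± 0.22), the F-box gene AT5G10340 (-1.29 ± 0.28), and AT2G16586 (-2.58 ± 0.42) were called. AT2G16586 kept its call without each library in turn, AT5G10340 lost it in 5 of the 6 fits (adjusted p up to 0.027), AT2G25220 in 3 (up to 0.013), and PUM9 in 2 (up to 0.012).

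Heat shock (16 tested), DNA damage and repair (20), UVR8 and flavonoid (18), light-harvesting antenna (17), sugar starvation (11), and touch (8) genes had no called member by edgeR, DESeq2, or the likelihood ratio test. The numbers with an unadjusted p under 0.05 were 3, 1, 2, 4, 3, and 3, in the same order, against 23.2% of all genes. The medians of their log2 fold changes were 0.10, 0.03, -0.11, -0.09, -0.01, and 0.21, against 0.00 over all genes. CAB1, a chlorophyll-binding antenna protein and the member of its list with the most reads, had a log2 fold change of -0.18 ± 0.07 (adjusted p = 0.094). DDB1A, a subunit of the complex that recognises UV-damaged DNA, was at 70.3, 74.8, and 75.4 CPM in phot1 and at 70.2, 65.3, and 84.6 CPM in phot2, with overlapping groups and a log2 fold change of -0.00 ± 0.07. The heat shock factor HSFB2A (0.02 ± 0.10) and the B-box factor STO (-0.01 ± 0.25) were equally near 0, as were the bHLH factor PIL6 (0.07 ± 0.21) and the senescence regulator NAP (-0.05 ± 0.19).

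**Figure D3:**
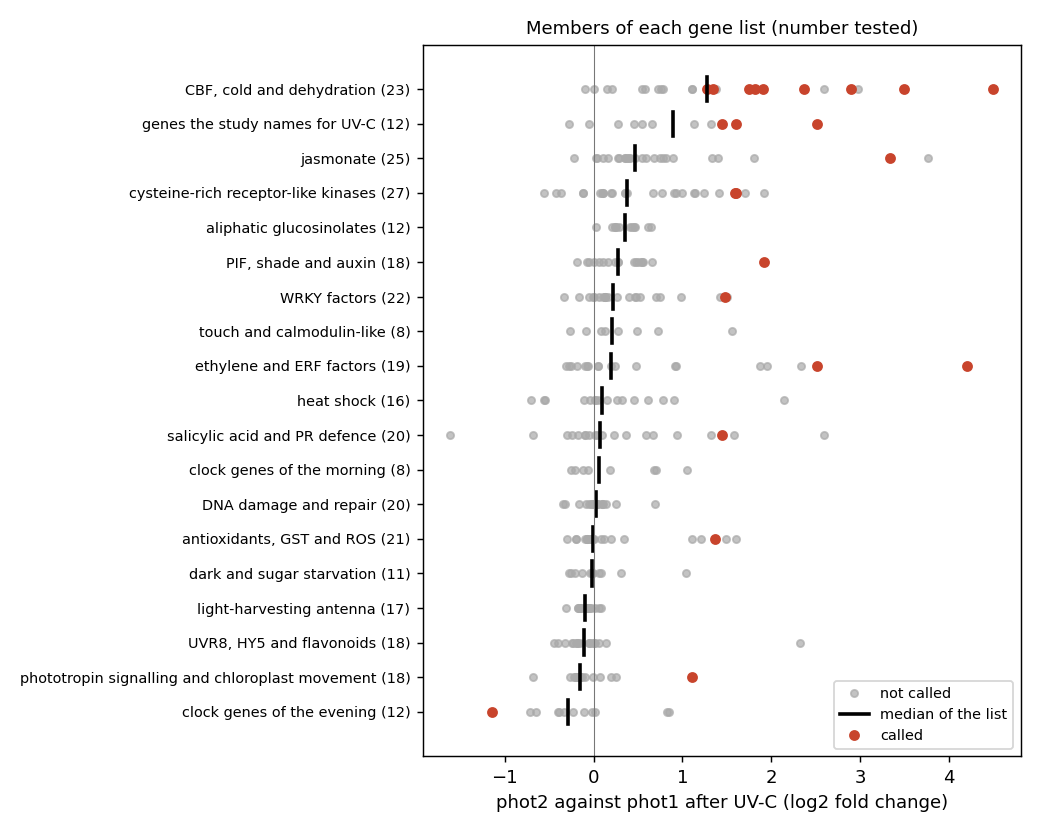
Log2 fold change of phot2 against phot1 after UV-C (x axis) for the tested members of each gene list (y axis, with the number tested), red where called and grey where not, and a black bar at the list's median. The cold and dehydration list has the median farthest to the right (1.28) and 9 red points, and the evening clock list the lowest median (-0.29).

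The same genotypes were also compared without UV-C. In libraries that are not shared with the comparison after UV-C, 32 genes (0.159%) were called, 19 (0.0946%) higher and 13 (0.0647%) lower in phot2. That is fewer than the 161 after UV-C, a difference that was not tested and that turned with glmTreat (7 without UV-C, 5 after it). Of these, 22 were also called after UV-C, all in the same direction (17 higher, 5 lower), which is 68.8% of the NT calls and 13.7% of the UV-C calls. Of the 161 genes called after UV-C, 150 (93.2%) had the same sign in NT plants, against 62.6% of all tested genes. The sizes differed. The 148 rises had a median of 1.42 after UV-C and 0.65 in NT, and 138 of them were larger after UV-C, which is a description only, since the genes were chosen by their UV-C values. The 13 falls had medians of -1.27 and -0.94.

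**Figure D4:**
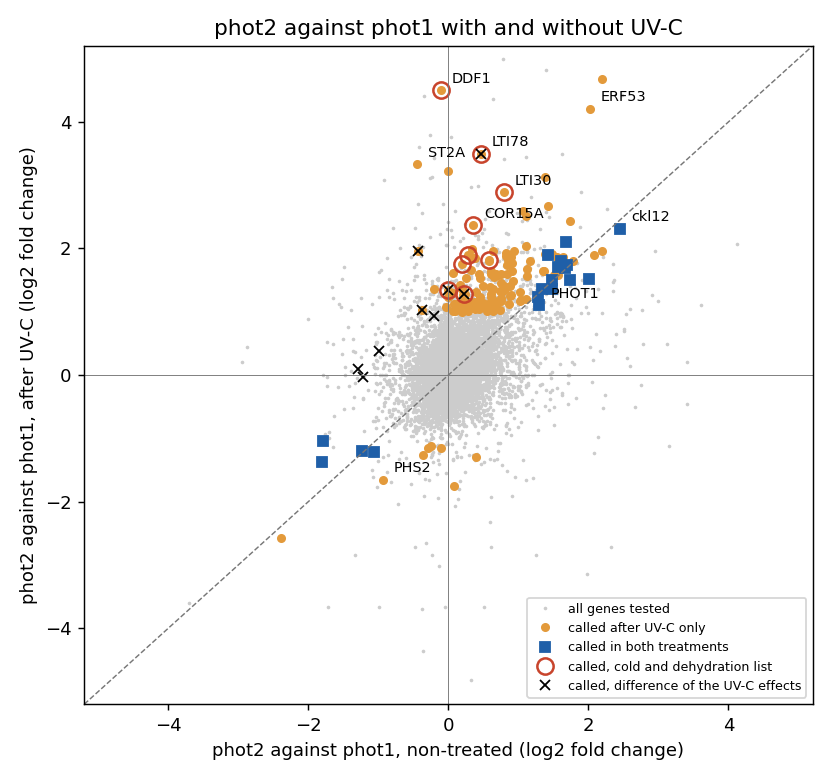
Log2 fold change of phot2 against phot1 after UV-C (y axis) against that in NT plants (x axis), 1 point a gene, with called genes coloured and the dashed line marking equal values; 8 genes beyond 5.2 on either axis are not drawn. The cold genes lie above the line near 0 on the x axis (LTI78 at 3.499 and 0.47), whereas ckl12 lies near it (2.31 and 2.46).

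Some of the called genes differed to a like extent in both treatments. The casein kinase I-like gene ckl12 was at 33.9, 30.2, and 38.1 CPM in phot1 and at 176, 170.1, and 163 CPM in phot2 after UV-C (2.31 ± 0.10, adjusted p = 2.5e-12), and its NT log2 fold change was 2.46. WT had 36.7, 33.5, and 33.5 CPM and phot1phot2 159.7, 132, and 152 CPM, so both groups with the phot2 mutation were high. AT1G45332, an elongation factor G protein named after its values were seen, was low in both groups with the phot1 mutation, at 12.4, 14.8, and 11.9 CPM in phot1, 12.2, 10.7, and 12.5 CPM in phot1phot2, 33.4, 32.4, and 34.3 CPM in phot2, and 34.97, 33.8, and 31.6 CPM in WT. The genes FRK1, EARLI1, and AT5G64120 had NT log2 fold changes of 1.73, 1.48, and 1.61, and EARLI1 and AT5G64120 were called there (adjusted p = 0.00046 and 0.0044), whereas FRK1 was not (0.013).

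Counts of 0 marked 4 called genes. AT3G42860, a zinc knuckle protein gene, had 0 reads in the 3 phot1 libraries and 24, 42, and 33 reads in phot2, which is at least 11.01-fold higher when 3 reads are set as the floor of each phot1 library. AT3G46990 had 0 reads in phot1 and 9, 26, and 19 in phot2 (at least 5.96-fold higher), and AT3G42850 had 0 reads in phot1 and 5, 9, and 7 in phot2 (at least 2.33-fold higher). All 3 were also at 0 in phot1phot2 and in NT phot1, and held reads in WT, with 30 to 62 reads of AT3G42860 after UV-C. AT1G27565, an uncharacterized gene, showed the reverse, with 0 reads in phot2 and 51, 26, and 54 in phot1 (at least 14.3-fold lower in phot2). It was at 0 in phot1phot2 and at 0 to 1 read in WT, so phot1 alone held more than 1 read a library among the groups given here. AT3G42850 lost its call in every fit without a library (adjusted p 0.010 to 0.017), DESeq2 gave no adjusted p for it, and the other 3 were called in all 6 of those fits. A floor covers counting error only.

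All 3 called genes at 0 in phot1 lie on the chromosome of PHOT1. AT3G42860 and AT3G42850 lie 1868 kb and 1871 kb before it on chromosome 3, and AT3G46990 lies 487 kb after it. Directly beside AT3G46990 are PHT4;3, a plastid phosphate transporter, and PHS2, 482 kb and 477 kb after PHOT1, which were both lower in phot2. PHT4;3 was at 53.0, 46.0, and 42.2 CPM in phot1 and at 19.9, 18.4, and 22.5 CPM in phot2 (-1.22 ± 0.10, adjusted p = 1.8e-07), and it overlaps PHS2 by a few bases on the same strand. AT3G46990 overlaps a gene on the opposite strand. The stretch of 12.4 kb with these 3 genes thus held 1 called rise and 2 called falls. In WT after UV-C PHS2 was at 37.0, 38.3, and 36.4 CPM and in phot1phot2 at 93.9, 81.2, and 85.4 CPM, near phot1. Within 2 Mb of PHOT1, 8 of 507 tested genes were called (1.58%, against 0.801% of all), and 5 of the 8 were called in NT as well. Within 2 Mb of PHOT2, 6 of 873 were called (0.687%), of which ckl12, 449 kb before PHOT2, was called in NT as well. The others included AT5G53710 (2.67 ± 0.61) and the AP2/ERF gene AT5G61890 (2.04 ± 0.48), each of which lost its call in 5 of the 6 fits without a library (adjusted p up to 0.043 and 0.049).

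**Figure D5:**
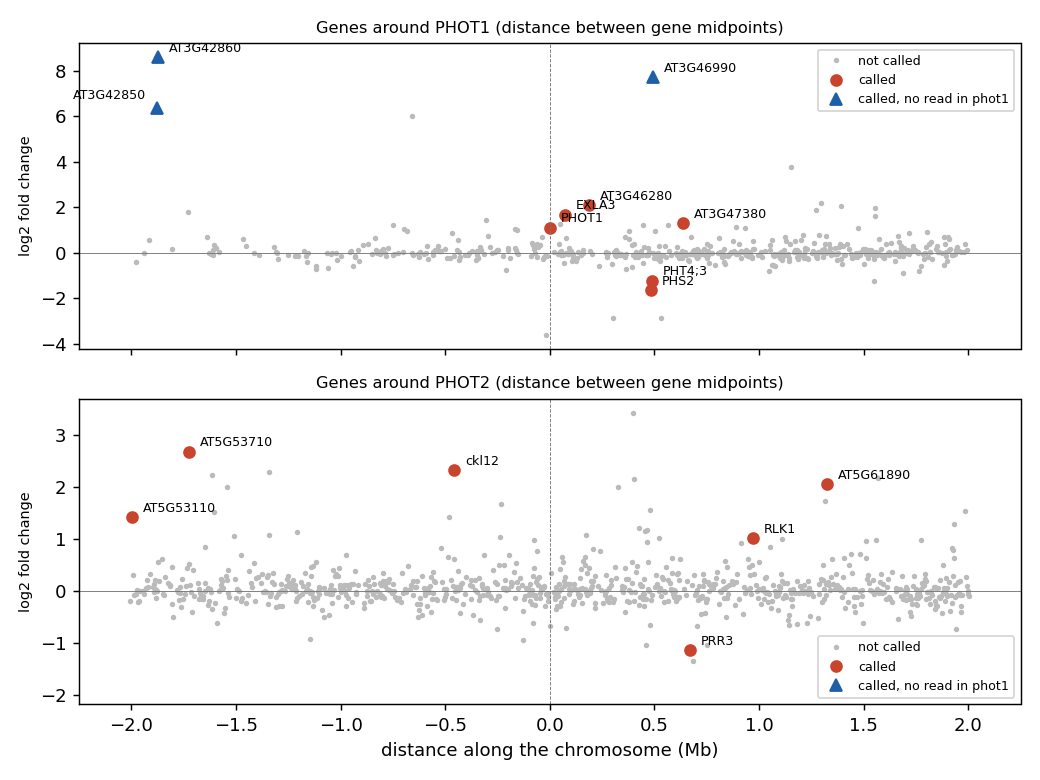
Fitted log2 fold change of phot2 against phot1 after UV-C (y axis) for tested genes within 2 Mb of PHOT1 (top) and PHOT2 (bottom), by distance between gene midpoints in Mb (x axis), with called genes in red and those without a read in phot1 as blue triangles, whose height depends on the fit. Around PHOT1 the called genes fall on both sides of 0, with PHS2 at -1.65 and PHT4;3 at -1.22 beside AT3G46990, and around PHOT2 ckl12 stands at 2.31.

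Whether UV-C acted differently in the mutants was tested as the difference of their UV-C effects. This test shares the UV-C libraries with the direct comparison. In it 9 genes (0.0448%) were called, all with the signed effect higher in phot2, and 5 of them are among the 161 above (LTI78, COR47, ERD10, AT4G30650, and KAT5). LTI78 had UV-C effects of 0.45 in phot1 and 3.49 in phot2 on the log2 scale, a difference of 3.03 ± 0.50 (adjusted p = 0.0065). COR47 had effects of -0.14 and 1.21 (difference 1.35 ± 0.19, adjusted p = 0.0019), and ERD10 of 0.82 and 1.88 (1.06 ± 0.18, adjusted p = 0.0091). AT4G30650, of a family responsive to low temperature and salt, had effects of -1.27 and 1.14 (2.403 ± 0.41, adjusted p = 0.0078), its level being 4.63, 2.76, and 3.24 CPM in phot1 and 22.9, 7.81, and 11.3 CPM in phot2 after UV-C. KAT5, a peroxisomal thiolase of fatty acid oxidation, had effects of -0.57 and 0.82 (1.39 ± 0.24, adjusted p = 0.0092). The count of 9 fell to 1 without phot1 replicate 2, to 2 without phot1 replicate 3 or NT phot1 replicate 3, and to 3 without any of phot1 replicate 1, phot2 replicate 1, NT phot1 replicate 1, or NT phot2 replicate 2, and to 5 without NT phot2 replicate 1. It was 23 with DESeq2, 51 with the likelihood ratio test, and 0 with glmTreat. Of the 5 genes named here, COR47 lost this call in 3 of the 12 fits without a library, KAT5 in 9, and LTI78, ERD10, and AT4G30650 in 10 each (adjusted p up to 0.012, 0.041, 0.026, 0.041, and 0.032).

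Values against WT were set beside these. Over the 148 rises the median log2 fold change after UV-C was 0.12 for phot1 against WT and 1.55 for phot2 against WT, with the WT libraries shared by both and the mutant libraries shared with the direct comparison. Relative to NT plants of the same genotype their median UV-C effect was 0.54 in phot1 and 1.19 in phot2, an order that the choice of these genes by their UV-C values favours. In AT1G45332, PHS2, and PHT4;3, by contrast, it was phot1 that was called against WT (log2 fold changes -1.36 for AT1G45332 and 1.07 for PHT4;3). The F-box gene AT5G10340 was at 1.26, 1.54, and 1.16 CPM in WT, below both mutants.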

How the data were processed

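RNA was sequenced from 24 rosette libraries (8 groups of 3, paired-end, poly-A selected), and the deposited table holds raw read counts per gene, which the authors made with STAR 2.5.2b and featureCounts (Subread 1.6.2) on TAIR10 with the Araport11 annotation. Per the file headers the counting set no strand option and left out reads with several positions, so genes on opposite strands are pooled and near-identical genes are undercounted. Of 37813 genes, 37517 were found in the RefSeq annotation of TAIR10.1, and 37469 had the same start and end there.

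Only genes annotated as protein-coding that reached 5 reads in 6 or more libraries were tested, in R 4.3.3 with the quasi-likelihood test of edgeR 4.0.16 (limma 3.58.1), TMM scaling, and 1 model of all 8 groups, and p-values were adjusted by Benjamini-Hochberg over all genes tested. The limits for a call were 0.01 for the adjusted p and 1 for the size of the log2 fold change. Values per library are CPM after TMM scaling. An exact permutation test of 3 against 3 libraries cannot go below a p of 0.1, so none was used. Replicates of a group differed by more than sampling noise (chi-square per degree of freedom 4.98 to 12.6 in 6 pairs). DESeq2 1.42.0, a likelihood ratio test, glmTreat, other scalings and filters, fewer libraries, a replicate block, and leaving out each library were the alternatives. The members and gene lists were chosen with earlier results of these data known. Named genes were PHOT1 and PHOT2; the 10 largest rises and falls with separate groups and at least 1 CPM in the higher group; the 5 called genes with the highest level; the 5 genes with the largest change called in both treatments; up to 3 interaction calls in each direction (all 9 are given); called list members and the highest uncalled member of each list (4 for the cold list; up to 4 had been planned for each, and the number was lowered with values known); up to 3 called genes near each of PHOT1 and PHOT2; and genes the study names. Exceptions are marked in the text.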

Additional observations from a re-analysis of the deposited data

Results flagged for a closer look

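The UV-C effect on 9 genes differed between phot1 and phot2 by the interaction test (edgeR, adjusted p under 0.01, absolute log2 difference over 1). For 5 of them the difference was 3.03 for LTI78, 2.4 for AT4G30650, 1.39 for KAT5, 1.35 for COR47, and 1.06 for ERD10, as described in the report. The other 4 were not called in the direct comparison after UV-C. In 3 of them (MYBL2, AT1G80440, and AT1G23390) phot2 was lower than phot1 without UV-C, with log2 fold changes of -0.997, -1.29, and -1.22, and at 0.38, 0.10, and -0.03 after it.

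MYBL2, a repressor of flavonoid synthesis, was at 21.5, 24.9, and 23.2 CPM in phot1 and at 11.9, 10.98, and 11.9 CPM in phot2 without UV-C, and at 39.8, 36.9, and 31.8 CPM in phot1 and 47.5, 45.0, and 49.0 CPM in phot2 after it (difference of effects 1.38 ± 0.14, adjusted p = 3.95e-05). AT1G80440, a kelch repeat protein gene, was at 72.8, 74.2, and 75.4 CPM in phot1 and at 28.2, 22.3, and 40.2 CPM in phot2 without UV-C. Its UV-C effects were -0.01 and 1.38, a difference of 1.39 ± 0.23 (adjusted p = 0.0070). AT1G23390, a kelch repeat F-box gene, was at 128, 111, and 109 CPM in phot1 and at 61.0, 44.6, and 43.8 CPM in phot2 without UV-C, and its effects of -0.31 and 0.88 differed by 1.19 ± 0.21 (adjusted p = 0.0091). FP6, a farnesylated metal-binding protein gene, was at 6.90, 6.62, and 7.66 CPM in phot1 and at 14.6, 13.2, and 12.9 CPM in phot2 after UV-C (log2 fold change 0.94). Its effects of -0.39 and 0.76 differed by 1.15 ± 0.16 (adjusted p = 0.0019). Of the 12 fits without a library, MYBL2 was called in all 12 and FP6 in 11, whereas AT1G80440 and AT1G23390 were not called in 11 (adjusted p up to 0.029 and 0.041) and LTI78, ERD10, and AT4G30650 not in 10. None of the 9 was called by glmTreat. The cause of these differences was not tested.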

How the results depend on the processing

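The counts of called genes were 161 after UV-C, 32 without it, and 9 for the interaction, in that order below. They moved to 304, 85, and 51 with a likelihood ratio test, to 203, 57, and 23 with DESeq2, and to 5, 7, and 0 with glmTreat. The share of higher calls without UV-C was 59.4% and moved to 82.4% with the likelihood ratio test and 75.4% with DESeq2. For the interaction it was 74.5% with the likelihood ratio test. With only the libraries compared the counts were 134, 19, and 8, and with the 12 libraries of 1 treatment 166 and 16. Fewer libraries inform the spread in these fits. Other scalings and filters left the count after UV-C at 158 to 170, with 46 calls without UV-C over all gene types. Leaving out 1 library gave 85 to 177, 22 to 39, and 1 to 11 calls, and without NT phot1 replicate 1 the share of higher calls in NT plants was 47.8%. The called cold genes numbered 12 with the likelihood ratio test, 1 with glmTreat, and 5 to 9 without a library.

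Of 52 named called genes, 28 were called without each of the 6 libraries in turn and 24 lost the call at least once, and none changed sign under the 18 alternatives. Signs turned only for named genes near 0 that were not called. DDB1A (-0.00) was at 0.0016 with DESeq2, 0.00078 with RLE scaling, 0.0066 with upper-quartile scaling, 0.0014 without a filter, 0.011 with at least 20 reads, and up to 0.076 without a library. STO (-0.01) was at 0.0014 with upper-quartile scaling, 0.0050 with at least 20 reads, and -0.024 to 0.010 without a library. STZ (0.00) was at -0.00041 with the replicate block and -0.090 to 0.108 without a library. Without a library NAP was at -0.211 to 0.050, HSFB2A at -0.010 to 0.058, and PIL6 at -0.0058 to 0.108.

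With the replicate number as a block the counts were 157, 29, and 10, and of the named calls AT5G53710 and AT5G61890 were not called (adjusted p = 0.011 for each). The numbers are those of the sample titles. The count columns carry other numbers, in which replicate 2 after UV-C is 4 for phot1 and 3 for phot2, and replicate 1 is 1 after UV-C and 3 without it. Same-numbered libraries of the mutants were compared by the correlation of their deviations, not of their levels. This correlation was 0.15, 0.052, and 0.047 after UV-C and 0.39, -0.11, and 0.029 without it, so the numbers were not taken as pairs. After UV-C the deviations of each library correlated best with those of its own number. Genes with few reads, such as AT3G42850 with 5 to 9 reads a library in phot2, limit what the depth can resolve.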
